A study of Mus musculus with 24 samples.

Results

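The fat cell genes Adipoq, Cfd, Lep, Retn, Plin1, Cidec, Fabp4, Lpl, Pparg and Scd1 were read in the gastrocnemius muscle of burned and sham mice. The 10 genes were chosen by name and matched to the Ensembl identifiers of the gene table, and each had 1 row of the 55401 in the table. Of the 10, 9 had a count in all 12 libraries, and 9 passed the filter on low counts and were tested among 12408 genes. Lep did not pass it. The libraries were poly-A RNA of male C57BL6 mice in 4 groups of 3, namely adult sham, adult burn, young sham and young burn, with 1 library per mouse. Young mice arrived at 4 weeks and adult mice at 10 weeks of age, and both were treated a week later, at 5 and 11 weeks. Burn mice received a full-thickness scald over 25% of the body surface and lactated Ringer's solution. Sham mice had the same anesthetic (isoflurane) and analgesic (buprenorphine) but neither scald nor resuscitation. Muscle was taken 24 h after the procedure in all groups. Since burn and resuscitation were given together, their effects cannot be told apart.

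White adipocytes store triglyceride in a large lipid droplet and secrete hormones called adipokines. In skeletal muscle they lie between fibres and bundles and in the connective tissue around the muscle, so that a dissected piece can carry more or less fat. Of the genes, 6 are largely restricted to adipocytes: the adipokines Adipoq (adiponectin), Cfd (complement factor D, or adipsin), Lep (leptin) and Retn (resistin), and the lipid droplet proteins Plin1 (perilipin 1) and Cidec. Other cells also use the remaining 4. Fabp4, a fatty acid carrier, is made by capillary endothelium, and Lpl, the lipase that frees fatty acids from circulating lipoproteins, is made by muscle fibres. Pparg is the nuclear receptor that drives fat cell formation, and Scd1 is a desaturase that makes monounsaturated fatty acids.

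The restricted genes share a cell type, and the stretch of DNA before their start sites is shown for 3 of them: the leading adipokines by count, Cfd and Adipoq, and Lep, the only one with a match to a C/EBP palindrome. C/EBP factors act with Pparg in fat cell formation. The sequences are from RefSeq (GRCm38.p6), which gave promoters for 7 of the 10 genes. Fabp4, Lpl and Scd1 were not matched. Each run holds the 250 bases before the start, 5′ to 3′ on the gene's strand, and capitals mark a motif match on either strand.
Adipoq, chr16:23146286-23146535, plus strand: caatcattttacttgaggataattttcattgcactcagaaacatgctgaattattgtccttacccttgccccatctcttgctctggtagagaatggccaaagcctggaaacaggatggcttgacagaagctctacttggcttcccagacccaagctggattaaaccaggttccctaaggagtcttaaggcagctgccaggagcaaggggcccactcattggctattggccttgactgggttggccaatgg
Cfd, chr10:79890603-79890852, plus strand: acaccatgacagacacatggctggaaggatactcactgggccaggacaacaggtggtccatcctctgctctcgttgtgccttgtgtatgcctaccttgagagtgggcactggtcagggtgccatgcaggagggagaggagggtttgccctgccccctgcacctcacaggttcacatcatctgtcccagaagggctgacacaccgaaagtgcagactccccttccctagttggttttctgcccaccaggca
Lep, chr6:29059971-29060220, plus strand: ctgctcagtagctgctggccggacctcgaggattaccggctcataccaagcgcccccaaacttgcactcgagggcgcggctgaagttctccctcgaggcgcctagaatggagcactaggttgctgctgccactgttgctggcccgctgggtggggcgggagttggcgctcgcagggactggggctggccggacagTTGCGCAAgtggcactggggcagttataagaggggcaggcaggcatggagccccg
The capitals in Lep are the palindrome TTGCGCAA, which begins 55 bases before the start. It was found in 0.164% of 32851 promoters of the same length. The direct repeat read by Pparg, which is AGGTCA followed by any base and AGGTCA again, was found in 0.0335% of all promoters and in none of those of the 7 genes. A single AGGTCA was present in 14% of all promoters and, among the 7 genes, in 2 of the 3 promoters of Pparg. The TATA box TATAAA was present in 12.4% of all promoters and in 1 of the 3 of Pparg. No match says only that these letters are not in this window.

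The tissue label was checked against muscle fibre genes (Ckm, Acta1, Myh4, Myl1, Tnnt3, Ttn). Their summed level in CPM (counts per 1000000 counts) ran from 78637 to 160801 over the 12 libraries, and each of the 6 was among the detected genes in every library. The highest sum was in young sham 3 and the lowest in young burn 2. Total counts per library were 4392605 to 5688512, which sets the counting error. All levels below are CPM after TMM scaling, which corrects for differences in library composition. Leaving out young burn 2 moved the count of genes that differed by age in sham mice from 467 to 1488. Member calls that change without it are given both ways. In young burn against young sham, the count moved more without young burn 1, from 8 to 697, than without young burn 2, to 84. No batch was given in the labels.

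Per kilobase of transcript the order of the genes was Fabp4, Lpl, Cfd, Scd1, Adipoq, Cidec, Retn, Pparg, Plin1 and Lep. Their median over the 12 libraries, in CPM per kilobase, was 975 for Fabp4, 223 for Lpl and 78.7 for Cfd. It was 12.2 for Scd1, 5.96 for Adipoq, 3.71 for Cidec and 3.10 for Retn. It was 2.59 for Pparg, 1.37 for Plin1 and 0.120 for Lep. Fabp4, at 567 to 1332, lay above Lpl, at 165 to 303, in range. Each further pair of neighbours overlapped in range, Cfd (10.6 to 253) reaching into the range of Lpl.

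Adipoq encodes the most abundant adipokine of the blood. Its level in young sham was 6.09, 9.32 and 2.19 CPM in replicates 1, 2 and 3, and in young burn 3.94, 11.5 and 12.3 CPM. In adult sham it was 29.8, 2.27 and 2.33 CPM, and in adult burn 28.8, 5.60 and 11.1 CPM. Adult sham 1 and adult burn 1 were the highest of all libraries, and the other 2 adult sham mice were close to the lowest young sham mouse. The raw counts were 144, 10 and 11 in adult sham, so that a single mouse gave most of the group's counts. Adult sham averaged 11.5 ± 15.9 CPM (SD, n = 3) and adult burn 15.2 ± 12.1 CPM (SD, n = 3). The young groups averaged 5.87 ± 3.57 CPM for sham and 9.24 ± 4.60 CPM for burn (SD, n = 3 each).

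Cfd, an activator of the alternative complement pathway, had the most counts among the restricted genes (5183 over the 12 libraries). In young sham it was at 73.1, 77.2 and 15.6 CPM, and in young burn at 39.6, 93.9 and 72.1 CPM. In adult sham it was at 224.8, 9.74 and 33.9 CPM, and in adult burn at 233.3, 35.2 and 88.0 CPM. The same adult mice, sham 1 and burn 1, were the highest, and adult sham 2 was the lowest of all. The highest adult sham library was 23.1 times the lowest.

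Retn, an adipokine of mouse fat, was at 5.36, 7.29 and 1.71 CPM in young sham and 1.25, 4.20 and 2.86 CPM in young burn. It was at 7.44, 0.68 and 2.33 CPM in adult sham and 16.6, 1.99 and 5.20 CPM in adult burn. Adult burn 1 was the highest of all 12, and the 4 groups overlapped. Lep, the satiety hormone, had 42 counts in all. Its counts were 3, 4 and 1 in young sham, 1, 1 and 2 in young burn, 14, 0 and 2 in adult sham and 12, 0 and 2 in adult burn. Adult sham 1 and adult burn 1 held 26 of the 42 counts. A count of 0 allows up to 3 counts, which is 0.68 CPM in adult sham 2 and 0.542 CPM in adult burn 2, for counting error only. No fold change is given for Lep.

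Plin1 coats the fat droplet and gates its lipases. It was at 4.87, 7.70 and 0.975 CPM in young sham and 1.79, 6.57 and 2.86 CPM in young burn. In adult sham it was at 23.2, 0.453 and 2.76 CPM, and in adult burn at 17.1, 1.27 and 5.57 CPM. Adult sham 2 rested on 2 counts, and the ratio of the highest to the lowest adult sham mouse was 51.1. Cidec, which helps small droplets fuse into a large one, was at 7.06, 4.86 and 1.46 CPM in young sham and 6.63, 10.2 and 6.13 CPM in young burn. In adult sham it was at 29.4, 0.68 and 2.55 CPM, and in adult burn at 17.9, 4.88 and 7.05 CPM. Both droplet genes followed the adipokines in which adult mouse was highest and which lowest.

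Scd1 was at 67.5, 178.2 and 35.8 CPM in young sham and 43.2, 87.8 and 50.7 CPM in young burn. It was at 136.3, 31.5 and 91.8 CPM in adult sham and 318.8, 37.2 and 41.8 CPM in adult burn. Adult burn 1 was 8.56 times adult burn 2. The 4 groups overlapped.

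Fabp4 differed from the restricted genes, with little spread between mice. It was at 745.5, 994.2 and 1181 CPM in young sham and 1193, 1158 and 1099 CPM in young burn. It was at 766.1, 641.3 and 508.4 CPM in adult sham and 950.6, 731.1 and 797.5 CPM in adult burn. The 3 young burn mice lay above the 3 adult burn mice, and young sham 3, the young sham mouse with the least Adipoq, had the most Fabp4 of its group. Lpl was at 943.5, 968.7 and 888.6 CPM in young sham and 1202, 679.4 and 959.8 CPM in young burn. It was at 1089, 1249 and 861.6 CPM in adult sham and 885.1, 708.1 and 734.9 CPM in adult burn. Adult sham 2, the mouse with the least Cfd, had the most Lpl. Pparg was low, at 5.85, 3.24 and 5.12 CPM in young sham and 6.27, 6.21 and 4.91 CPM in young burn. It was at 3.72, 3.17 and 4.24 CPM in adult sham and 5.20, 2.89 and 3.34 CPM in adult burn. Its groups overlapped. An antisense gene, Gm44079, lies over Pparg and shares 0 exon bases with it.

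**Figure D1:**
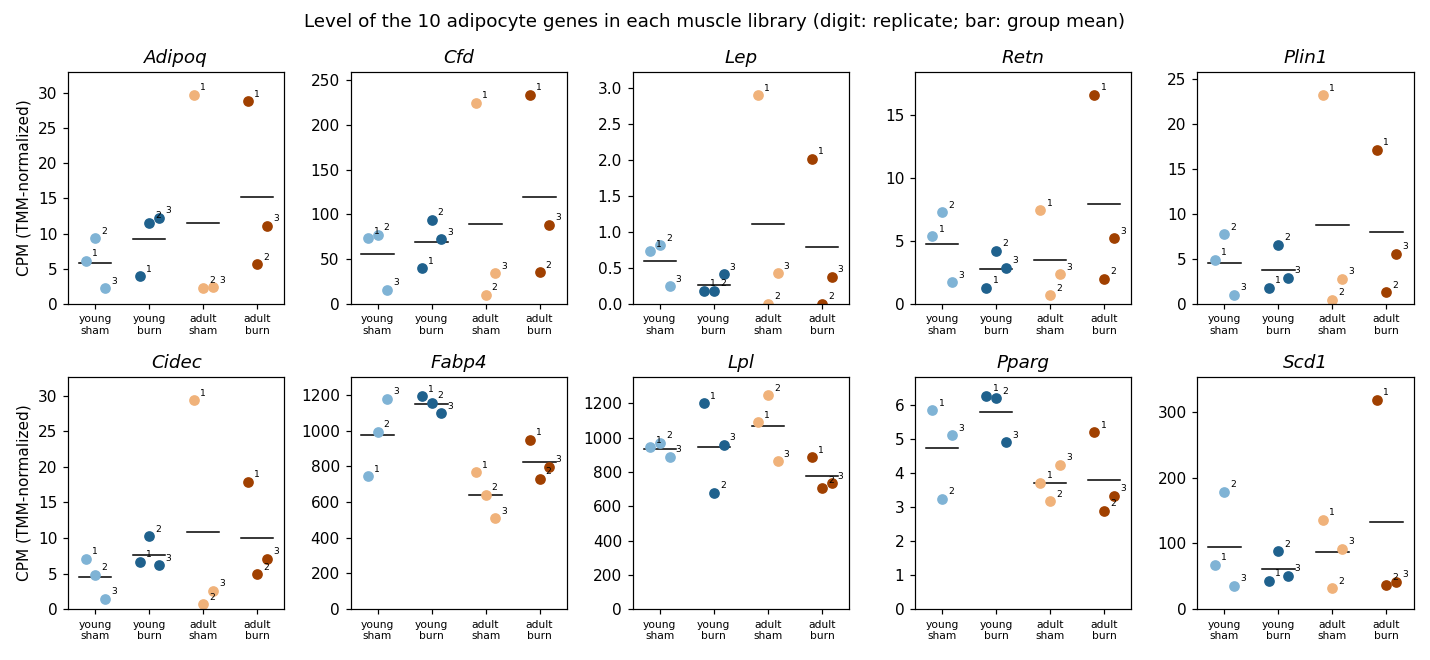
Level of each gene in CPM (y axis, from 0) in the 4 groups (x axis), with 1 point per mouse, its replicate number, and a bar at the group mean. Replicate 1 of adult sham and of adult burn stands far above its group for Adipoq, Cfd, Lep, Plin1 and Cidec, while Fabp4, Lpl and Pparg stay close together.

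The 6 restricted genes were summed as a description of their joint level in each library. Cfd, with 5183 counts beside 653 for Adipoq, the next of the 6, made up most of the sum in every library. The sum is thus mainly a reading of Cfd. The ratio of the highest to the lowest mouse for Cfd alone was 4.95 in young sham, 2.37 in young burn, 23.1 in adult sham and 6.62 in adult burn. The sum was 97.2, 107.1 and 22.2 CPM in young sham, and 53.4, 126.5 and 96.7 CPM in young burn. It was 317.4, 13.8 and 44.3 CPM in adult sham, and 315.8, 49.0 and 117.3 CPM in adult burn. The highest mouse of adult sham was 23.0 times the lowest, against 4.83 times in young sham, 2.37 times in young burn and 6.45 times in adult burn. The spread within adult sham thus exceeded any difference between group means, which ran from 75.5 CPM in young sham to 160.7 CPM in adult burn. For Fabp4, Lpl and Pparg together the highest mouse of a group was 1.22 to 1.38 times the lowest. In bulk tissue, more adipocytes and more RNA per adipocyte cannot be told apart.

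**Figure D2:**
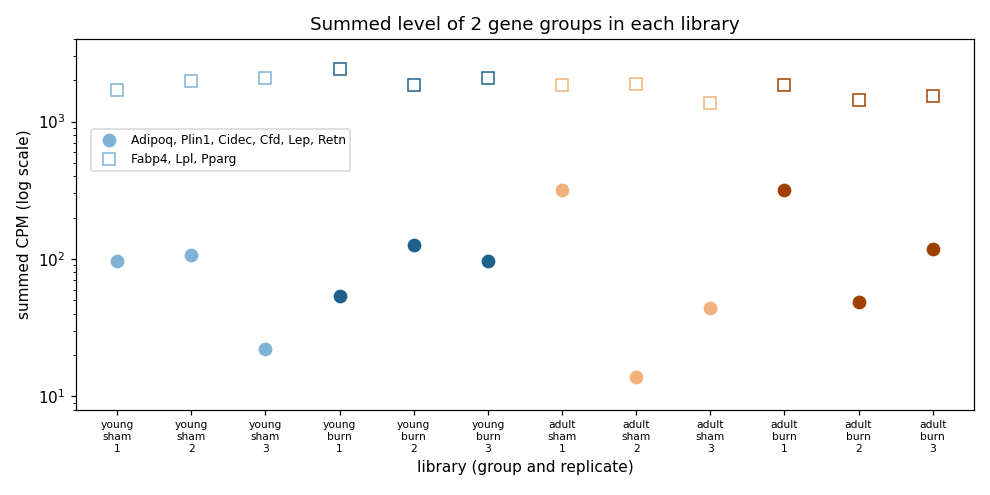
Summed CPM on a log axis in each of the 12 libraries, with filled circles for the 6 restricted genes and open squares for Fabp4, Lpl and Pparg. The circles run from 13.8 to 317.4 CPM and the squares from 1374 to 2401 CPM. Cfd makes up most of the circle sum in each library.

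The order of mice within a group was nearly the same for the 5 restricted genes that were tested. Adult sham 1 and adult burn 1 were highest for 5 of 5, and adult sham 2, adult burn 2 and young sham 3 were lowest for 5 of 5. In young burn, replicate 2 was highest for 4 of 5 and replicate 1 lowest for 4 of 5. Counting all 9 tested genes, adult sham 1 and adult burn 1 were both highest for 7, or 77.8%, while this held for 10.5% of all genes tested. Lpl and Pparg were the exceptions. In counts, the ratio of Cfd to Adipoq stayed between 4.30 and 14.5, a 3.38-fold range. The range was 4.29-fold for Retn, 5.61-fold for Cidec, 5.91-fold for Plin1 and 10.5-fold for Scd1, each to Adipoq. The ratio of Fabp4 to Adipoq ranged 20.9-fold, from 25.7 in adult sham 1 to 538.2 in young sham 3, and that of Lpl to Adipoq ranged 18-fold.

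Variation within groups was measured by the biological coefficient of variation (BCV) that edgeR fits for each gene after removing counting noise. The median over the 12408 genes tested was 14.4%, and the 99th percentile was 43.1%. Plin1 had 84.8%, the rank 4 of all genes. Cidec had 73.4% (rank 9), Cfd 72.3% (rank 12), Adipoq 69.9% (rank 14), Retn 63.3% (rank 24) and Scd1 62.5% (rank 25). Lpl, at 18%, Fabp4, at 17.2%, and Pparg, at 15%, were close to the median. Without young burn 2 the BCV was 78.0% for Plin1 (rank 4 of 12651) and 66.1% for Adipoq (rank 14). Without adult sham 1 and adult burn 1 it was 61.7% for Plin1 (rank 16 of 12613), 49.7% for Cfd (rank 71) and 46.2% for Retn (rank 104). In the same fit it was 44.7% for Scd1 (rank 122), 40.3% for Adipoq (rank 207) and 35.2% for Cidec (rank 426). All 6 genes thus remained at or above percentile 96.6 of the genes tested without these 2 mice. The BCV is 1 value per gene over the 4 groups, and the groups differed. By the range of log2 CPM within a group, the 5 tested restricted genes lay at percentile 99.2 or above in young sham, adult sham and adult burn. In young burn they lay at percentiles 67.1 to 96.0.

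**Figure D3:**
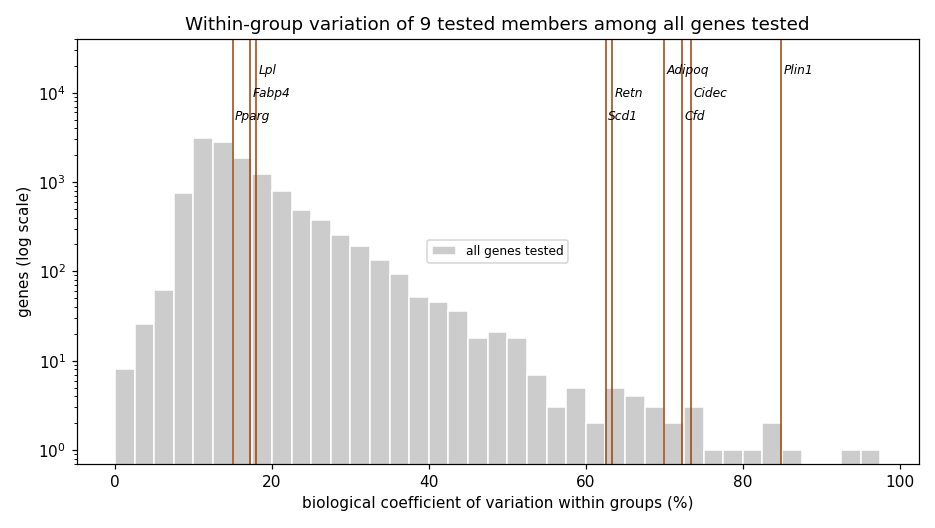
Histogram of the BCV within groups (x axis, %) for all genes tested (y axis, log scale), with a line for each of the 9 tested members. Retn, Scd1, Adipoq, Cfd, Cidec and Plin1 lie between 62.5% and 84.8%, and Pparg, Fabp4 and Lpl between 15% and 18%.

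Age was compared first in sham mice. None of the 9 tested genes was called at an adjusted p under 0.05 (edgeR quasi-likelihood test, Benjamini-Hochberg), while 3.76% of all genes were. Of the members 1, and of all genes 20.2%, had an unadjusted p under 0.05. That member was Fabp4, with 974 ± 218 CPM in young sham and 639 ± 129 CPM in adult sham (SD, n = 3 each). Its log2 fold change was 0.61 (SE 0.18, adjusted p = 0.0812). Without young burn 2, Fabp4 was called higher in young sham, with a log2 fold change of 0.60 (adjusted p = 0.0323), where 11.8% of all genes were called, and without young sham 1 it was called with 0.77 (adjusted p = 0.0370), where 3.81% of all genes were. DESeq2 also called it, with 0.59 (adjusted p = 0.0399), where 5.23% of genes were called. Markers of endothelium, which makes Fabp4, were set beside it. Of 8 endothelial genes 1, the junction gene Cldn5, was called higher in young sham, at 1.12 (adjusted p = 0.00915), and the summed level of the 8 was 418.2 to 587.8 CPM in young sham and 402.2 to 437.6 CPM in adult sham. Their part in the Fabp4 values was not tested.

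The restricted genes had wide intervals in the same comparison. Adipoq had a log2 fold change of -0.95 (95% interval -2.88 to 0.98, adjusted p = 0.596) and Cfd one of -0.69 (-2.61 to 1.22, adjusted p = 0.711). Without adult sham 1 and adult burn 1 the sign turned, to 1.37 for Adipoq (adjusted p = 0.381), 1.34 for Cfd (0.396), 1.49 for Plin1 (0.497) and 1.44 for Cidec (0.333). Leaving out adult sham 1 alone turned the same 4 values, to 1.37, 1.34, 1.48 and 1.44 in this order.

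Burn was compared with sham in adult mice. None of the 9 genes was called, and 0.00806% of all genes were. Of the members 1, Lpl, and of all genes 6.87%, had an unadjusted p under 0.05, and DESeq2 called no member and 0.0245% of genes. Lpl was at 776 ± 95.4 CPM in adult burn and 1066 ± 194 CPM in adult sham (SD, n = 3 each), a log2 fold change of -0.46 (SE 0.19, adjusted p = 0.697). Fabp4 had 0.37 (95% interval -0.03 to 0.77, adjusted p = 0.720). Retn had 1.17 (-0.45 to 2.80, adjusted p = 0.781), which moved to 0.017 without adult burn 1 and to 2.37 without adult sham 1. Adipoq had 0.40 (-1.31 to 2.11, adjusted p = 0.938). Without the same 2 mice Plin1 turned from -0.14 to 1.04, Cidec from -0.13 to 1.85 and Scd1 from 0.62 to -0.65.

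In young mice, burn against sham called no member, and 0.0645% of all genes. No member but 20.3% of all genes had an unadjusted p under 0.05. DESeq2, whose own filter left 7 members, called none of them and 4.53% of genes. Adipoq had a log2 fold change of 0.61 (95% interval -1.34 to 2.57, adjusted p = 0.735) and Retn one of -0.81 (-2.61 to 0.99, adjusted p = 0.605). The fit shares 1 estimate of a gene's spread over the 4 groups, so these intervals also carry the spread of the adult mice. Without adult sham 1 and adult burn 1, Adipoq had 0.64 (-0.45 to 1.73) and Retn -0.79 (-2.07 to 0.50). With all 12 libraries, Lpl, at 0.02 (-0.40 to 0.44, adjusted p = 0.961), and Fabp4, at 0.24 (-0.16 to 0.64, adjusted p = 0.482), had narrower intervals than Adipoq and Retn. Without young burn 2, Lpl had 0.22 (SE 0.15), and again no member was called, against 0.664% of all genes.

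Young burn against adult burn called 10.8% of all genes and none of the 9. Of the members 2, Fabp4 and Pparg, and of all genes 28.4%, had an unadjusted p under 0.05, and DESeq2 called no member and 10.8% of genes. Fabp4 had a log2 fold change of 0.48 (SE 0.18, adjusted p = 0.111), with 1150 ± 47.8 CPM in young burn and 826 ± 113 CPM in adult burn (SD, n = 3 each). It was the only member whose mice did not overlap between these groups, which held in this direction for 15.7% of all genes. Of the 8 endothelial genes 3, Cdh5, Emcn and Esam, were called higher in young burn, and the sum of the 8 was 449.9 to 626.1 CPM in young burn and 368.9 to 405.9 CPM in adult burn. Young sham 3 and young burn 1, the highest of their groups for 8 of 8 endothelial genes, were also the highest for Fabp4. Adult sham 1, the highest for Fabp4 in its group, was highest for 5 of 8, and adult burn 1, the highest for Fabp4 in its group, for 2 of 8. Of 8 macrophage genes 5 were called higher, namely Mrc1, C1qa, C1qb, Adgre1 and Lyz2. The 8 summed to 470.5 to 800.3 CPM in young burn and 336.5 to 466.5 CPM in adult burn. The calls of C1qb and Lyz2 were kept in only 4 of 12 fits that each left out 1 library. Those of Mrc1, C1qa and Adgre1 were kept in 9. The part of either cell type in the Fabp4 values was not tested. Pparg had 0.60 (SE 0.28, adjusted p = 0.174). Lpl had 0.29 (SE 0.19, adjusted p = 0.351) and was called without young burn 2, at 0.48 (SE 0.15, adjusted p = 0.0362), where 20.7% of all genes were called. Retn had -1.53 (95% interval -3.18 to 0.12, adjusted p = 0.207), with the 3 young burn mice at 1.25 to 4.20 CPM, and moved to -0.37 without adult burn 1. Adipoq, Cfd, Plin1, Cidec and Scd1 turned from negative to positive without adult sham 1 and adult burn 1.

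The difference of the burn effect between ages was tested as an interaction. No member was called, as for all genes (0%), and no member but 7.20% of all genes had an unadjusted p under 0.05. DESeq2 called no member and 0.00351% of genes. Retn had -1.98 (95% interval -4.41 to 0.44, adjusted p = 0.731), and Lpl 0.48 (-0.11 to 1.07, adjusted p = 0.734). The comparisons share sham or burn mice, and each is therefore given by its own values.

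**Figure D4:**
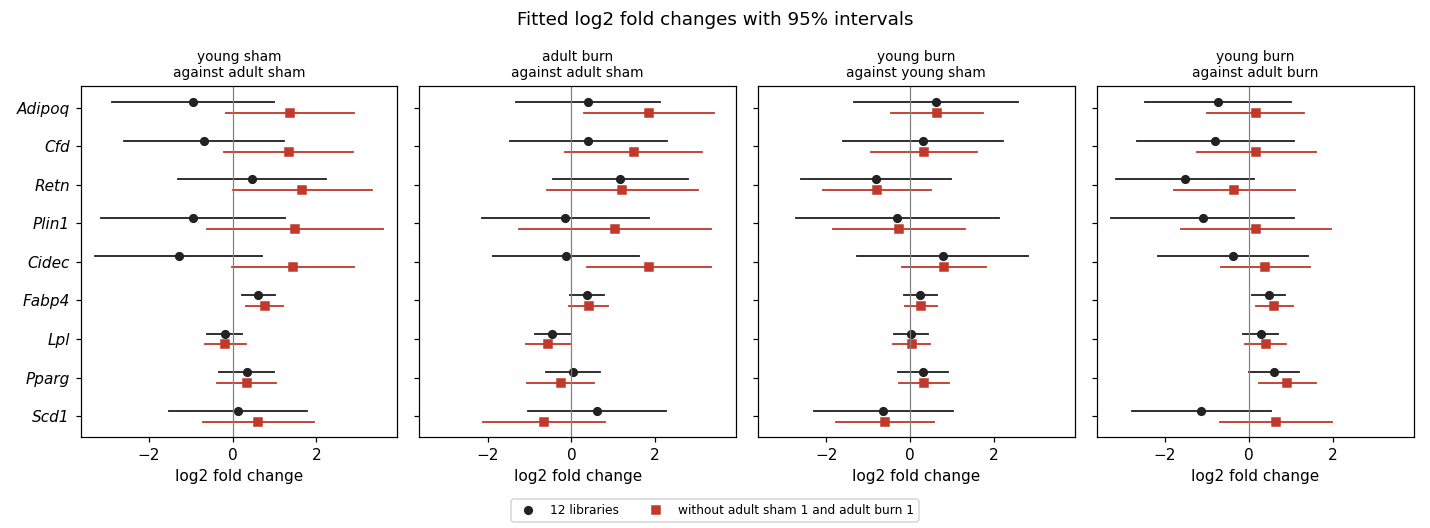
Log2 fold change (x axis) with its 95% interval for the 9 tested genes in 4 comparisons, fitted on 12 libraries (black circles) and without adult sham 1 and adult burn 1 (red squares). Intervals of the restricted genes and Scd1 are wide and several change sign, while those of Fabp4, Lpl and Pparg are narrow.

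The genes most like the restricted ones were found by Pearson's r over the 12 libraries between log2 CPM and the mean standardized log2 CPM of Adipoq, Plin1, Cidec, Cfd and Retn. The libraries share 4 groups and 2 mice with high levels, so that r is a description. Of 12399 genes ranked, 13 had an r above 0.8. Cdo1, which breaks down cysteine, led with 0.917. Slc1a5, a glutamine transporter, had 0.913, and Cyp2e1, a cytochrome P450, had 0.893. Lgals12, a galectin of fat cells, had 0.892, and Nnat had 0.887. Pck1, the enzyme that makes glycerol backbones for triglyceride in fat, had 0.882. Prkar2b, a regulatory subunit of protein kinase A, had 0.853, as had Lipe, the hormone-sensitive lipase. Cebpa, a partner of Pparg, had 0.848, and Hp, haptoglobin, had 0.843.

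Over the 10 libraries without adult sham 1 and adult burn 1 these r values were 0.648 for Prkar2b to 0.907 for Hp. With each group centred on its own mean they were 0.848 for Lipe to 0.962 for Cebpa. The 10 genes had been picked by r over all 12 libraries, so both readings are a description and no separate check. Lgals12 had 30, 0 and 4 counts in adult sham and 18, 0 and 11 in adult burn. Slc1a5 and Lipe ranked high with small differences between mice, Lipe being at 23.2, 14.7 and 14 CPM in adult sham. Among the 4 members that other cells use, Scd1 had an r of 0.783, Fabp4 0.177, Pparg 0.138 and Lpl -0.215.

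**Figure D5:**
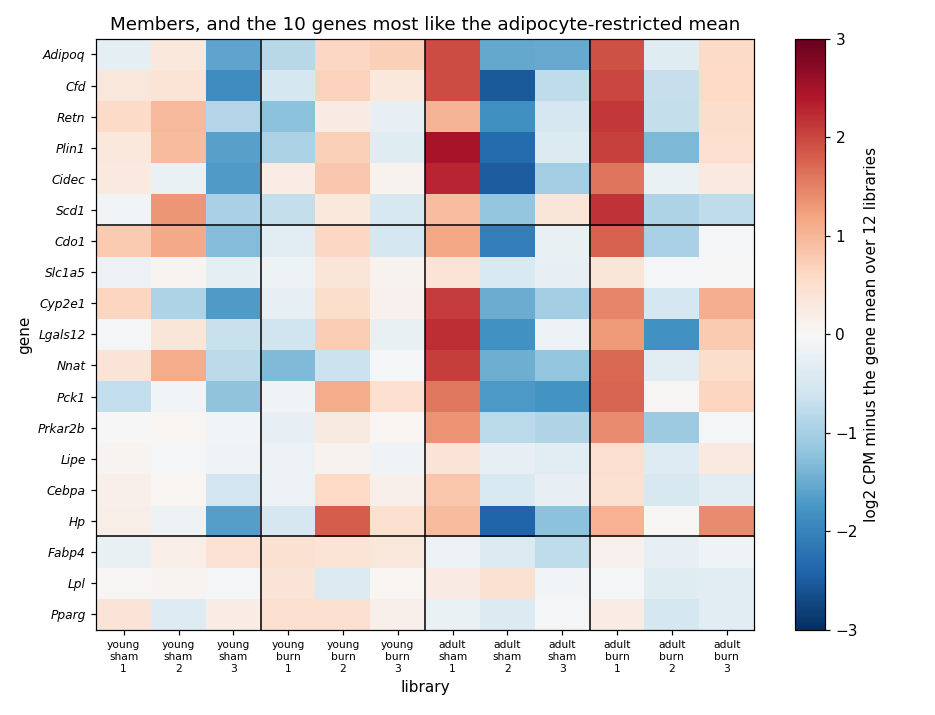
Log2 CPM of each gene minus its mean over the 12 libraries (colour, from -3 to 3), with mice in columns and genes in rows: 5 restricted members and Scd1 on top, the 10 most alike genes in the middle, and Fabp4, Lpl and Pparg below. Adult sham 1 and adult burn 1 are in shades of red and adult sham 2 in shades of blue in the upper blocks, and the lowest block is pale.

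Other genes of fat cells were taken as a list of 25, of which 19 were tested. Adult sham 1 and adult burn 1 were both highest for 10 of the 19, or 52.6%, beside 10.5% of all genes. Of the list 6 did not pass the filter, and some of these had their counts in the same mice. Mrap, a partner of melanocortin receptors, had 13, 2 and 2 counts in adult sham and 13, 1 and 4 in adult burn. Adrb3, the beta-3 adrenergic receptor, had 7, 0 and 1 counts in adult sham and 16, 0 and 7 in adult burn. Yet the median r of the 19 with the restricted mean was 0.16, and the range was -0.27 to 0.89. The 25 genes summed to 3284 to 7600 CPM, with the most in young sham 3, the young sham mouse with the least Adipoq. That mouse also had the highest sum of muscle fibre genes. In young burn the list sum was highest in replicate 1 (5101 CPM), the young burn mouse with the least Adipoq. In the adult groups it was highest in adult sham 1 (5022 CPM) and adult burn 1 (4692 CPM), the mice with the most Adipoq. Which cells of the muscle made the genes of this list was not tested. The list's median log2 fold change was 0.09 in young sham against adult sham, where the median of all genes was 0.01.

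Of the 19, 3 were higher and 2 lower in young burn than in adult burn, beside 10.8% of all genes called in either direction, and none was called in the other comparisons with all 12 libraries. The log2 fold change of Aqp7, a glycerol channel, was 0.76 (adjusted p = 0.0339), Cav1, the main caveolin, 0.72 (adjusted p = 0.0113) and Npr3, a natriuretic peptide clearance receptor, 1.13 (adjusted p = 0.0135). Slc2a4, the insulin-regulated glucose transporter of muscle and fat, had -0.66 (adjusted p = 0.0154) and Ces1d, a carboxylesterase, had -1.25 (adjusted p = 0.0312). Without young burn 2, 21 of the list were tested. Of these, 2 were higher (Car3 and Cav1) and 4 lower (Sncg, Ces1d, Slc2a4 and Fitm2) in young sham than in adult sham, beside 11.8% of all genes. In young burn against adult burn 4 were then higher and 2 lower, beside 20.7% of all genes, with Aoc3, an amine oxidase of fat cells, newly called at 1.01 (adjusted p = 0.0179). The call of Npr3 was then also made in young burn against young sham, at 1.07 (adjusted p = 0.0440).

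Of 20 genes of fatty acid and triglyceride synthesis, 18 were tested. In young sham 2 were lower than in adult sham, beside 3.76% of all genes called. They were Acacb, the acetyl-CoA carboxylase that limits fatty acid oxidation, with -0.88 (adjusted p = 0.0151), and Lpin1, a phosphatidate phosphatase, with -0.61 (adjusted p = 0.0373). In young burn 1 was higher and 3 were lower than in adult burn, beside the 10.8% of all genes: Elovl5, an elongase, had 0.73 (adjusted p = 0.0301), Me1, malic enzyme, -0.75 (adjusted p = 0.00321), Lpin1 -0.78 (adjusted p = 0.00713) and Acacb -0.66 (adjusted p = 0.0269). Gpam, which starts glycerolipid synthesis, was also called there without young burn 2, at 0.61 (adjusted p = 0.0108). None was called in the burn comparisons within an age with all 12 libraries, and without young burn 2 Me1 was lower in young burn than in young sham, at -0.53 (adjusted p = 0.0447). Of 8 lipolysis genes 7 were tested, and Abhd5, the activator of adipose triglyceride lipase, was lower in young sham than adult sham, at -0.77 (adjusted p = 0.0277). Without young burn 2, Pnpla2, the adipose triglyceride lipase, was higher in young burn than in young sham, at 1.16 (adjusted p = 0.0447).

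Of 17 regulators of fat cell formation, all tested, 1 was higher and 1 lower in young sham than in adult sham, beside 3.76% of all genes. Ebf1, an early factor of fat cell formation, had 0.79 (adjusted p = 0.0127), and Rxra, the partner with which Pparg binds DNA, had -0.75 (adjusted p = 0.0153). Rxra was also lower in young burn than in adult burn, at -0.61 (adjusted p = 0.0196), as was Srebf1, a driver of fatty acid synthesis genes, at -0.91 (adjusted p = 0.0234). These were 2 of the 17, beside 10.8% of all genes called in that comparison. Of 5 receptors of adipokines, Adipor1, an adiponectin receptor, was lower in young burn than in adult burn, at -0.48 (adjusted p = 0.0170).

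Of 9 partners of Lpl, 5 were tested. Of all genes, 3.76% were called in young sham against adult sham and 10.8% in young burn against adult burn. Angptl4, an inhibitor of Lpl, was at 9.26, 22.7 and 13.4 CPM in young sham and 2.27, 3.40 and 2.55 CPM in adult sham. The groups did not overlap, and the log2 fold change was 2.47 (SE 0.40, adjusted p = 0.00604). Angptl4 was also higher in young burn than in adult burn, at 1.29 (adjusted p = 0.0372), a call lost without young burn 2, at 0.97 (adjusted p = 0.0694). Vldlr, a lipoprotein receptor, was lower in the young, at -1.25 in sham (adjusted p = 0.0133) and -0.97 in burn (adjusted p = 0.0203). Lpl itself was not called in either comparison with all 12 libraries. Gpihbp1, which holds Lpl on capillaries, was at 40.5 to 70.9 CPM in the 12 libraries and was not called.

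Relatives of the members were read as well. The share of all genes called was 3.76% in young sham against adult sham and 10.8% in young burn against adult burn. It was 0.0645% in young burn against young sham. In the perilipin and CIDE family of 6, Plin2, Plin3, Plin4, Plin5 and Cidea were tested and none was called with all 12 libraries. Cidea, a droplet protein of brown fat, had 2, 1 and 2 counts in young sham, 11, 16 and 13 in young burn, 10, 3 and 4 in adult sham and 16, 1 and 3 in adult burn. Of the 9 other fatty acid binding proteins 2 were tested. Fabp5 was at 22.7, 21.1 and 31.9 CPM in young sham and 57.7, 56.6 and 60.7 CPM in young burn. It was higher in young burn than in young sham, at 1.21 (SE 0.17, adjusted p = 0.0185), and than in adult burn, at 1.32 (SE 0.17, adjusted p = 0.000875). Fabp3, the form of muscle fibres, was not called with all 12 libraries. Without young burn 2 it was called in all 5 tests, lower in young sham than in adult sham (-0.42, adjusted p = 0.0317) and in adult burn than in adult sham (-0.70, adjusted p = 0.0132). It was then higher in young burn than in young sham (0.65, adjusted p = 0.0440) and than in adult burn (0.93, adjusted p = 0.000383), with an interaction of 1.34 (SE 0.17, adjusted p = 0.00724). Fabp5 was then also higher in young sham than in adult sham, at 0.64 (adjusted p = 0.0304). Retnla, the only tested relative of Retn, was lower in young sham than in adult sham, at -0.81 (adjusted p = 0.0364), and in young burn than in adult burn, at -0.69 (adjusted p = 0.0355). Of the other desaturases, Scd2 was tested and not called, and Scd3 and Scd4 had at most 3 counts in a library.

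Every call on these lists with all 12 libraries kept its sign in the 12 fits that each left out 1 library. The call itself was kept in 12 of 12 for Angptl4 and Cldn5 in young sham against adult sham and for Fabp5, Me1 and Lpin1 in young burn against adult burn. It was kept in 11 for Adipor1, Cav1 and Npr3 and in 10 for Slc2a4 and Emcn in the latter comparison. It was kept in 4 for Lpin1 and 5 for Retnla in young sham against adult sham, and in 6 for Angptl4 and 7 for Aqp7 in young burn against adult burn. Fabp5 in young burn against young sham was kept in 9 and lost without young sham 1, young sham 2 or young burn 3. The remaining calls named from these lists, macrophage genes apart, were kept in 7 to 9.

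Leaving out young burn 2 changed further list counts, and more of all genes were called as well. The share of all genes was 11.8% in place of 3.76% in young sham against adult sham. It was 20.7% in place of 10.8% in young burn against adult burn and 0.664% in place of 0.0645% in young burn against young sham. In adult burn against adult sham, 115 genes were called in place of 1. In young sham against adult sham, 2 regulators were higher and 2 lower in place of 1 each. The perilipin Plin3 was higher, at 0.36 (adjusted p = 0.0418), and Adipor1 lower, at -0.43 (adjusted p = 0.0118). In young burn against adult burn, 4 regulators were higher and 3 lower in place of 0 and 2, and 1 receptor was higher and 2 lower in place of 0 and 1. There Plin3 was higher, at 0.40 (adjusted p = 0.0276), as was Mgll, a lipase of monoglycerides, at 0.57 (adjusted p = 0.0424). In the same comparison 5 endothelial genes were higher in place of 3, and in young burn against young sham 3 macrophage genes in place of 0. In adult burn against adult sham the regulator Cebpd was higher, at 1.31 (adjusted p = 0.0443).

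Markers of other cells were set beside the restricted sum. The median r with the restricted mean was -0.23 over 8 endothelial genes, 0.16 over 8 macrophage genes, 0.16 over 8 fibro-adipogenic progenitor genes and -0.02 over 5 tendon genes. It was -0.06 over the 4 tested Schwann cell genes, 0.08 over 5 red blood cell genes and -0.28 over 6 muscle fibre genes. Adult burn 1 was highest of its group for 8 of 8 macrophage genes, and adult sham 1 for none of them. Adult sham 1 was highest for 5 of 5 red blood cell genes, with a sum of 491.1 CPM beside 294.2 CPM in the lowest adult sham mouse. Adult sham 1 and adult burn 1 were both highest for 3 of 5 tendon genes and 3 of 8 progenitor genes. Tendon genes summed to 101.1 to 233.0 CPM in adult sham and 95.3 to 136.8 CPM in adult burn. In young sham against adult sham 1 tendon gene (Kera) and 1 muscle fibre gene (Myl1) were called higher, beside 3.76% of all genes. In young burn against adult burn 2 of 8 progenitor genes (Cd34 and Lum) were called higher, beside 10.8% of all genes. Of 6 keratinocyte and sebocyte genes, Krt5, Krt14, Krt1 and Dsg3 were at 0 counts in all 12 libraries. The other 2, Krt10 and Mc5r, were tested and brought the sum of the list to 10.0 to 31.7 CPM, and Krt10 was higher in young sham than in adult sham, at 0.94 (adjusted p = 0.0276). Ucp1, the uncoupling protein of brown fat, had 17 counts in adult sham 1, 4 in adult burn 1 and 0 in the other 10 libraries. It was 1 of 7 brown fat genes, and the 3 tested had a median r of -0.004 (range -0.21 to 0.45). Adult sham 1 and adult burn 1 were both highest for 3 of the 7. The 7 summed to 48.9 to 60.6 CPM in adult sham and 40.3 to 44.4 CPM in adult burn. The part of other tissues in the spread of the restricted genes was not tested.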

How the data were processed

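Gene counts of 12 poly-A RNA libraries (4 groups, 3 mice each, grouped by the labels) were used. The deposited counts are raw reads per gene: the authors aligned paired reads to GRCm38 with STAR (2.7.5c in the submitters' processing notes) and counted them on Gencode M25. The strand setting was not given in the sources used here. Small RNA counts were not used. Symbols came from a gene name reference keyed by Ensembl identifier, and from Gencode M21 where it gave none. Gencode M21, which did not match 260 genes, gave the gene coordinates, and levels per kilobase used its principal transcript. Counts were filtered (filterByExpr, minimum count 10, total 15), TMM-scaled and tested with edgeR 4.0.16 (quasi-likelihood, all 12 libraries in one fit, two-sided) in R 4.3.3, with calls at an adjusted p under 0.05. The sampling unit was a mouse, and each p-value sets a difference between groups against the spread between mice. That spread was estimated once per gene over all 4 groups, also where the groups differed in it. DESeq2 1.42.0, other scalings, no filter, the compared groups alone, a replicate block and leaving out each library were alternatives. On simulated counts for young sham against adult sham, edgeR recovered 183 of 200 genes changed 4-fold among 12408, with 7 false calls. The 200 were drawn from all genes tested, whose median BCV was 14.4%. The recovery therefore does not apply to the restricted genes and Scd1, with a BCV of 62.5% to 84.8%. Total counts of 4392605 to 5688512 limit low genes such as Lep, and limits cover counting error only. The members and lists were chosen with earlier results of these data known. Named were all members, list genes called in a comparison (up to 8 per list), family relatives, and the 10 genes with the highest r. Genes outside these rules (Lgals12, Mrap, Adrb3, Gpihbp1 and Ucp1 counts, and calls made only without young burn 2) were picked after their values were seen.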

Additional observations from a re-analysis of the deposited data

How the results depend on the processing

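With all 12 libraries 467, 1, 8, 1343 and 0 genes were called in young sham against adult sham, adult burn against adult sham, young burn against young sham, young burn against adult burn and the interaction, and 0 members in each. DESeq2 called 7 genes in adult burn against adult sham, 440 in young burn against young sham, 1 in the interaction, and 1 member (Fabp4) in young sham against adult sham. Library size alone called 615 genes in young burn against young sham and turned the interaction of Plin1 to 0.075, Cfd to 0.12 and Fabp4 to 0.13. Without a filter on low counts, 1011, 285, 1095 and 116 genes were called (young sham against adult sham, adult burn against adult sham, young burn against young sham, interaction), and 5, 2, 1, 5 and 2 members in the 5 comparisons. These were Adipoq, Plin1, Cidec, Cfd, Retn, Scd1 and Fabp4, among them genes whose direction rests on adult sham 1 or adult burn 1, and the cause was not tested. With the compared groups alone 1163, 115, 1 and 314 genes were called in the first 4 comparisons.

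Over all genes tested, the deviations of same-numbered mice had correlations of -0.20 to 0.15. Mice of different numbers were not correlated beside them, so these values do not decide whether replicate numbers pair the mice. For the restricted genes, replicate 1 was highest and replicate 2 lowest for 5 of 5 in both adult groups. Whether same-numbered mice shared handling was not tested. With the replicate block 343, 3, 9, 1165 and 0 genes and 0 members were called, and Plin1 (0.012) and Cidec (0.18) turned in adult burn against adult sham.

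Without adult sham 1 and adult burn 1 together, an alternative chosen after seeing the data, 76, 0, 3 and 797 genes were called in the first 4 comparisons and 0 members. Signs turned in young sham against adult sham for Adipoq (1.37), Plin1 (1.49), Cidec (1.44) and Cfd (1.34), and in adult burn against adult sham for Plin1 (1.04), Cidec (1.85), Pparg (-0.25) and Scd1 (-0.65). They turned in young burn against adult burn for Adipoq (0.16), Plin1 (0.17), Cidec (0.39), Cfd (0.18) and Scd1 (0.65), and in the interaction for Adipoq (-1.21), Cidec (-1.05) and Scd1 (0.038).

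Leaving out 1 library gave 97 to 1488 genes called in young sham against adult sham (97 without young sham 3 or adult sham 2, 155 without young sham 2, 160 without adult sham 1, 217 without adult sham 3, 1488 without young burn 2) and 0 to 1 members. It gave 1 to 115 in adult burn against adult sham (3 without young burn 1, 115 without young burn 2), and 0 to 12 in the interaction (12 without young burn 2). It gave 1 to 697 in young burn against young sham (1 without young sham 2, 2 without young sham 3 or young burn 3, 4 without adult sham 1 or adult burn 3, 5 without adult burn 2, 84 without young burn 2, 697 without young burn 1). It gave 390 to 2623 in young burn against adult burn (390 without adult burn 3, 487 without adult burn 2, 642 without young burn 3, 2623 without young burn 2), with 0 to 1 members.

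Log2 fold changes that turned without 1 library ranged, in young sham against adult sham, from -1.48 to 1.37 for Adipoq, -1.60 to 1.48 for Plin1, -1.83 to 1.44 for Cidec, -1.22 to 1.34 for Cfd, -0.012 to 1.65 for Retn and -0.75 to 0.61 for Scd1. In adult burn against adult sham they ranged from -0.47 to 2.72 for Adipoq, -1.38 to 2.29 for Plin1, -0.88 to 2.60 for Cidec, -0.54 to 2.44 for Cfd, -0.25 to 0.21 for Pparg and -1.13 to 1.10 for Scd1. In young burn against young sham they ranged from -1.0 to 0.36 for Plin1, -0.13 to 0.63 for Cfd, -0.19 to 0.22 for Lpl and -1.02 to 0.23 for Scd1. In young burn against adult burn they ranged from -1.13 to 0.13 for Adipoq, -1.80 to 0.14 for Plin1, -0.71 to 0.36 for Cidec, -1.23 to 0.15 for Cfd and -1.58 to 0.61 for Scd1. In the interaction they ranged from -2.10 to 1.08 for Adipoq, -2.59 to 1.08 for Plin1, -1.82 to 1.66 for Cidec, -2.13 to 0.85 for Cfd, -0.29 to 0.038 for Fabp4 and -1.74 to 0.49 for Scd1.

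The summed level of the restricted genes moved by less than the spread within its group under both other scalings. With 3 mice a group and a BCV of 62.5% to 84.8%, intervals for the restricted genes and Scd1 span several fold, so that a p that missed the threshold does not show equal levels. Lep rests on 42 counts and Plin1 in adult sham 2 on 2.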

Other observations

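Among genes of fatty acid and triglyceride synthesis, adult sham 1 and adult burn 1 were both highest of their group for 9 of the 18 tested, and among lipolysis genes for 4 of 7, beside 10.5% of all genes tested. Among regulators of fat cell formation this held for 3 of 17, and among endothelial, macrophage and muscle fibre genes for 0 of 8, 0 of 8 and 0 of 6. It held for 3 of 5 tendon genes and 3 of 8 fibro-adipogenic progenitor genes. Of the receptors of adipokines it held for 0 of 5. The lists were chosen with results of these data known, and the counts are a description.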
